A study of Bos taurus with 4 samples.

Results

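The 8-oxoG loci described here are those that the deposited OG-seq lists assign to ST3GAL4 on bovine chromosome 29. They were taken as all rows whose gene symbol was ST3GAL4, which gave 12 of 370 loci in C13, a fertile bull, and 26 of 614 loci in C14, an infertile bull, or 38 of 984 loci in all. In OG-seq, 8-oxoguanine (8-oxoG) in sheared DNA is tagged with biotin and pulled down, and what is released from the beads is sequenced. Sperm DNA came from 2 Korean native striped bulls aged 6 years, C13 with normal fertility and C14 with asthenozoospermia and teratozoospermia, and neither received a treatment named in the labels. Each bull gave 1 library enriched for 8-oxoG and 1 input library, so each value below is that of a single library, no difference between the bulls can be set against a spread between animals, and bull, fertility and library cannot be told apart. The lists hold DNA loci and no expression values, so the label "sperm" could not be checked against marker genes. The gene was chosen by the number of rows it had in these lists, and these numbers are given as a description.

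8-oxoG is the main oxidation product of guanine in DNA and is removed by base excision repair, which starts with the glycosylase OGG1. Repair activity declines as spermatids mature, so that lesions can persist in sperm DNA. ST3GAL4 encodes a sialyltransferase of the Golgi apparatus that adds sialic acid to galactose at the ends of glycan chains, and sialic acids are abundant on the surface of sperm. KIRREL3, its neighbour, encodes a cell adhesion protein of the immunoglobulin superfamily that is best known from synapses.

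None of the ST3GAL4 loci lay in or close to ST3GAL4. In the build bosTau8, the lists place ST3GAL4 (gene number 404163) on the plus strand of chromosome 29 from 30073042 to 30112565, and KIRREL3 (gene number 618028) on the minus strand from 30128060 to 30886851, so that the 3′ ends of the genes face each other across 15.5 kb. All 12 loci of C13 and all 26 loci of C14 were annotated to a single intron of KIRREL3, listed as intron 13 of 14. For comparison, introns held 22.4% of all C13 loci and 23.1% of all C14 loci. Whether the introns were numbered from the 5′ end of KIRREL3 is not given in the sources used here. Each locus carries the name of the gene whose transcription start site (TSS) is closest, and the loci were 191 to 312 kb downstream of the ST3GAL4 TSS in C13 and 167 to 312 kb downstream of it in C14, with medians of 240442 bp and 224602 bp. The KIRREL3 TSS was 501 to 623 kb away from the C13 loci and 501 to 646 kb away from the C14 loci. Within 100 kb of the ST3GAL4 TSS, 0 loci were listed in either bull.

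**Figure D1:**
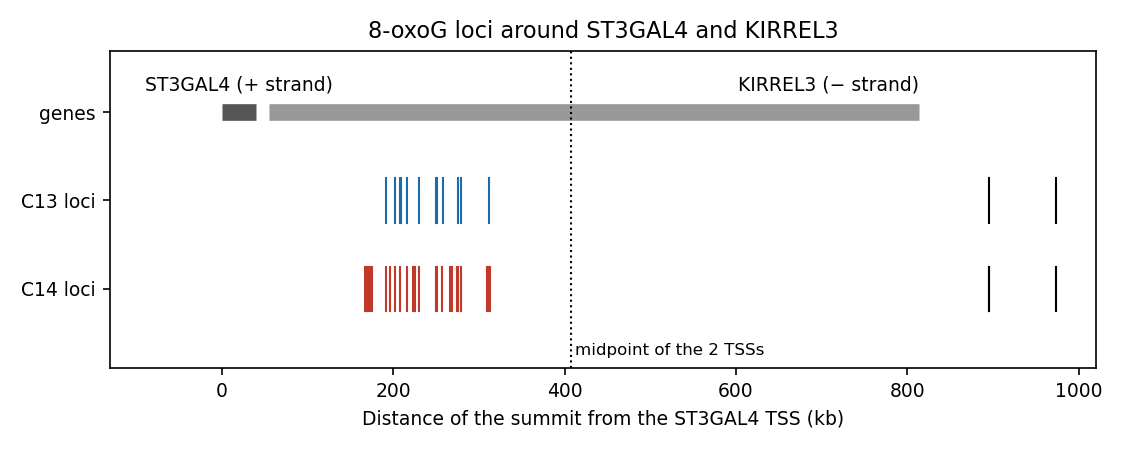
Position of the 8-oxoG loci (vertical ticks at the summits; blue, C13 and red, C14) relative to the ST3GAL4 TSS in kb, with the extent of both genes as grey bars; black ticks are the loci assigned to KIRREL3. All ST3GAL4 loci lie in the body of KIRREL3, 167 to 312 kb from the ST3GAL4 TSS and left of the midpoint between both TSSs.

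The point at which the assignment would pass to KIRREL3 is the midpoint between both TSSs, at 30479946, and no listed locus was near it. The last ST3GAL4 locus ended 94.5 kb before the midpoint in both bulls. The next locus on the far side was assigned to KIRREL3 and began 488 kb beyond the midpoint, also in both bulls. On the other side, the next listed locus was 10.8 Mb away in C13, assigned to PAK1, and 6.47 Mb away in C14, assigned to ANO5. The cluster was therefore isolated on the chromosome in both lists, and no locus inside KIRREL3 was assigned to KIRREL3 itself. It made up 60% of the 20 loci that C13 had on chromosome 29 and 68.4% of the 38 that C14 had there. In the later assembly ARS-UCD2.0, the RefSeq gene table has 0 genes between ST3GAL4 and KIRREL3 and 3 lncRNA genes inside KIRREL3. Those positions were not compared with the loci because the builds differ, and the sequences of the loci are not shown here because no bosTau8 genome was used.

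In C13, the 12 loci formed 10 separate intervals over 121.6 kb, from 30263890 to 30385489, since MACS2 had split 2 of the intervals into subpeaks. The gaps between neighbouring intervals ranged from 3318 bp to 33.0 kb, with a median of 11304 bp. The pileup (fragments of the enriched library that overlap at the summit) was lowest at 8 fragments, had a median of 21 and was highest at 46, and 11 of the 12 loci were above the median of 9 over the whole C13 list. The highest pileup and the highest fold enrichment over the input fell on the same interval, chr29:30351997-30352243, with 46 fragments (exact Poisson 95% interval 33.7 to 61.4), 25.8-fold enrichment and −log10 q = 56.7. This was the second highest fold enrichment in the whole C13 list. The next by fold enrichment, 15.4, was chr29:30303534-30303781 with 27 fragments, and the next by pileup was chr29:30263890-30264092 with 40 fragments and a fold enrichment of 11.9. The lowest pileups were at the right end of the cluster, chr29:30385238-30385489, with 8 fragments (3.45 to 15.8), and at chr29:30330433-30330721, with 13 fragments. All such intervals cover counting error only, and subpeaks of an interval share fragments.

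In C14, the 26 loci formed 24 intervals over 145.1 kb, from 30240426 to 30385491, which is 16.5 intervals per 100 kb against 8.22 in C13. The gaps ranged from 448 bp to 29.8 kb with a median of 4770 bp, and 8 of them were under 2 kb, whereas 0 were in C13. The whole C14 list was also longer, with 575 intervals against 353 in C13, and gaps over the whole lists were not counted. The pileup was lowest at 9 fragments, had a median of 41 and was highest at 115, and 23 of the 26 loci were above the median of 18 over the C14 list. The fold enrichment was highest in C14 at the same interval as in C13, chr29:30351997-30352241, with 85 fragments (67.9 to 105.1), 23.4-fold enrichment and −log10 q = 88.2. The second highest was chr29:30289473-30289731 with 80 fragments and a fold enrichment of 20.4. The interval with the highest pileup, chr29:30281374-30281752 with 115 fragments (94.9 to 138), had the lowest fold enrichment of the cluster, 2.75, because the local background there was 41.2 fragments. The lowest pileups were 9 fragments (4.12 to 17.1) at chr29:30269299-30269523 and 14 fragments at chr29:30339047-30339441, both without a counterpart in C13. Most summits were well inside their interval, but 2 of 12 in C13 and 5 of 26 in C14 were no more than 30 bp from an edge.

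**Figure D2:**
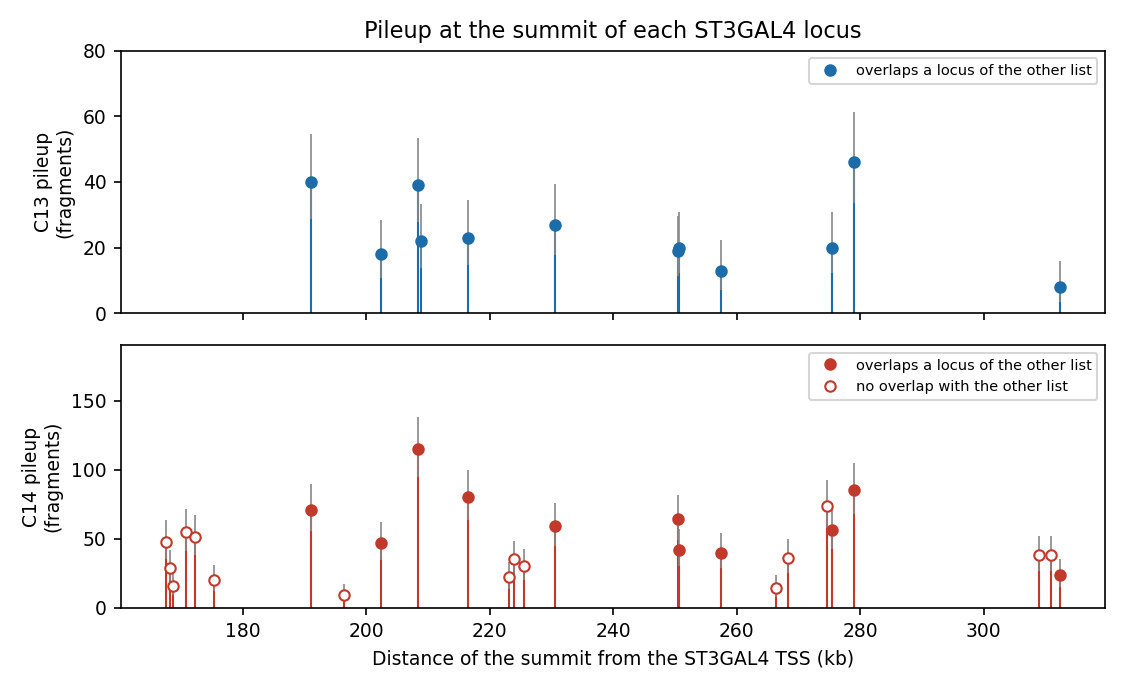
Pileup at the summit (fragments) of each ST3GAL4 locus against its distance from the ST3GAL4 TSS (kb), C13 above and C14 below; grey bars are exact Poisson 95% intervals. Filled points overlap a locus of the other bull, as all 12 C13 loci do; open points, 15 of the 26 C14 loci, do not.

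Stricter thresholds left most of the loci in place. At a −log10 q of at least 5, 11 of 12 remained in C13, where 70.0% of all loci passed, and 22 of 26 in C14, where 68.4% passed. At a q under 0.01, all 12 and all 26 passed, against 93.0% of all C13 loci and 89.7% of all C14 loci. At a fold enrichment over 4, 11 of 12 passed in C13, beside 97.6% of all C13 loci, and 24 of 26 in C14, beside 92.3% of all C14 loci. The median fold enrichment was 11.0 in C13 and 9.67 in C14, beside 7.56 and 6.76 over the whole lists. The loci with a −log10 q under 5 were the subpeak at 30281877 in C13 and, in C14, the subpeak at 30241707 and the intervals that begin at 30248391, 30269299 and 30339047.

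Every interval that C13 had in this cluster was also listed in C14. An overlap of 1 bp or more with the C14 list was present at all 12 C13 loci, beside 57.0% of the C13 list. An overlap with the C13 list was present at 11 of the 26 C14 loci, beside 36.6% of the C14 list. Counted as intervals, 10 of 10 in C13 and 10 of 24 in C14 were shared. The positions of the shared intervals were compared at the start, the end and the summit. The start was within 1 bp in 7 of the 10 pairs, against 26.2% of the 195 shared pairs of all genes. The end was within 1 bp in 1 of the 10, against 26.7% of all shared pairs. The closest summits were within 12 bp in 8 of the 10, against 49.2% of all shared pairs. At FAM207A, the starts matched in 6 of 13 pairs, the ends in 6 and the summits in 8. The 2 pairs with summits farther apart, by 38 and 40 bp, were those that begin at 30330433 and 30385238 in C13. At the interval that begins at 30281375, C13 had a further subpeak of 22 fragments whose summit lay 125 bp past the end of the C14 interval.

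The pileup was higher in C14 at all 10 shared intervals, as it was at 98.5% of the shared intervals of all genes, and the values follow from left to right. At 30263890 it was 40 fragments in C13 and 71 in C14, a ratio of 1.78 (exact 95% interval 1.19 to 2.68), and at 30275397 it was 18 and 47, a ratio of 2.61 (1.49 to 4.78). At 30281375 it was 39 and 115, a ratio of 2.95 (2.03 to 4.36). The 95% intervals of these ratios overlapped each other. At 30289474 the pileup was 23 in C13 and 80 in C14, the highest ratio of the cluster at 3.48 (2.16 to 5.80). At 30303534 it was 27 and 59, a ratio of 2.19 (1.36 to 3.58), and at 30323435 it was 20 and 64, a ratio of 3.20 (1.91 to 5.58). The highest subpeaks at 30323435 had different summits in the bulls. At the summit 30323753, listed in both, the pileups were 20 in C13 and 42 in C14. At the other subpeak, with summits at 30323558 in C13 and 30323554 in C14, they were 19 and 64. Even the 95% intervals of the highest and the lowest ratio, 3.48 and 1.78, overlapped. At 30330433 the pileup was 13 and 40, a ratio of 3.08 (1.61 to 6.27), and at 30348467 it was 20 and 56, a ratio of 2.8 (1.65 to 4.93). At 30351997, the locus with the highest fold enrichment in both bulls, it was 46 and 85, a ratio of 1.85 (1.28 to 2.71), and at 30385238 it was 8 and 24, a ratio of 3.0 (1.30 to 7.72).

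The median of these ratios was 2.87, beside 2.5 over the 185 shared intervals of all other genes, and 8 of the 10 were at least 2, where 76.9% of all shared intervals were. The values of the 2 libraries were not scaled to each other by the authors, and the lists do not state the depth. A stand-in for it is the lowest local background of each list. It was 0.135 fragments in C13 against 0.359 in C14, and their ratio was 2.66. The ratio of mapped reads of the enriched libraries was lower at 1.55, and whether these reads include duplicates is not stated by the study. Which of these ratios is used changes the outcome. The ratio of 2.66 lay inside the 95% interval of all 10 shared ST3GAL4 intervals and of 172 of the 185 others. The ratio of 1.55 lay inside that of 5 of the 10, and at the other 5, those that begin at 30281375, 30289474, 30323435, 30330433 and 30348467, the lower limit was above it, as it was at 32.3% of all shared intervals. The ratio at 30323435 sets different summits against each other. At its summit 30323753 the pileups were 20 in C13 and 42 in C14, and at the other subpeak 19 and 64. No 95% interval was computed for those pairs. In the fold enrichment, which is relative to the input of the same bull, 6 of the 10 shared intervals were higher in C14 and 4 in C13, where 50.8% of all shared intervals were higher in C14. The interval at 30323435 was among the 6. There, the fold enrichment was 9.17 in C13 and 4.79 in C14 at 30323753, but 10.3 and 13.8 at the other pair of subpeaks. The listed fold adds 1 to the pileup and to the local background, which matters most at low backgrounds such as those of C13. The local background itself was higher in C14 by a median ratio of 3.62, against 2.87 for the pileup. The fold ratio ranged from 0.543 at 30281375 to 1.89 at 30385238, with a median of 1.27.

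**Figure D3:**
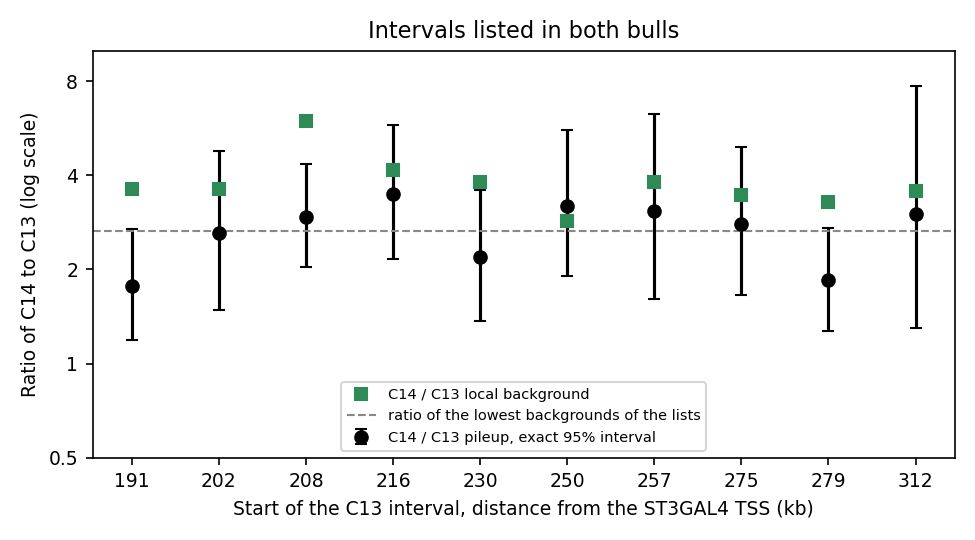
Ratio of C14 to C13 (log scale) at the 10 shared intervals, ordered by their distance from the ST3GAL4 TSS (kb), for the pileup (black, with exact 95% intervals) and for the local background (green); the dashed line is the ratio of the lowest local backgrounds of the lists, 2.66. The interval of each pileup ratio crosses the line, and every background ratio lies above it. Each ratio uses the subpeak with the highest pileup in each list.

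The C14 list held 14 further intervals, with 15 loci, that had no counterpart in C13. Their pileups ranged from 9 to 74 fragments with a median of 35, against 24 to 115 with a median of 59 for the 11 C14 loci that were shared. Among other genes, the median was 12 fragments for the C14 loci without a C13 locus and 29 for the shared ones. The left end of the cluster was present in C14 alone, as 5 intervals over 8.42 kb that ended 15.0 kb before the first C13 locus. At chr29:30240426-30240629 the pileup was 48 fragments, at chr29:30243833-30244039 it was 55, and at chr29:30245064-30245433 it was 51, with fold enrichments of 10.2, 12.1 and 10.9. Those 3 were the high ones of this block. The subpeaks of chr29:30241195-30241728 had 29 and 16 fragments, and chr29:30248391-30248847 had 20 fragments.

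The other 9 C14 loci without a C13 locus lay between or beside the shared ones. The highest of them, chr29:30347545-30347747 with 74 fragments (58.1 to 92.9) and a fold enrichment of 11.0, was 719 bp from a C13 interval, at 30348467, that did not reach it. At chr29:30382011-30382221 and chr29:30383787-30384004 the pileup was 38 fragments each, higher than the 24 fragments of the shared interval next to them at 30385238, which was listed in C13 with 8 fragments. The remaining ones were chr29:30341209-30341407 with 36 fragments, the group chr29:30296099-30296298, chr29:30296747-30297169 and chr29:30298540-30298763 with 22, 35 and 30 fragments, and the 2 intervals with 9 and 14 fragments named above.

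To compare these loci with what the C13 library could list, each C14 pileup and its local background were multiplied by 0.376, the ratio of the lowest local backgrounds, and the Poisson p was computed again. A locus passed when its −log10 p reached 5.20, the lowest that C13 has, and the scaled fold enrichment exceeded 2. Of the 15 loci, 11 passed, where 42.9% of all C14 loci without a C13 locus did. These loci are in the list because they were high in C14, and C13 enters only through the scale and the threshold, with no C13 value at the loci themselves, so the count is no test of a difference between the bulls. In the block at the left end, 4 of 6 passed. The scaled pileups there were 18.0 fragments at 30240426, 20.7 at 30243833 and 19.2 at 30245064, where 9 would have sufficed. At 30347545 the scaled pileup was 27.8 fragments, where 11 would have sufficed. The margin was small at 30296747, with 13.2 fragments where 13 were needed. The count fell to 7 with the lower 95% Poisson limit of each pileup, a setting chosen after the values were seen, and to 7 at a −log10 p of at least 10. It was 13 with the ratio of mapped reads, which was also added after the values were seen. The C13 coverage at these positions was not analysed here, so a locus that is not in the C13 list is not shown to have 0 fragments in C13.

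**Figure D4:**
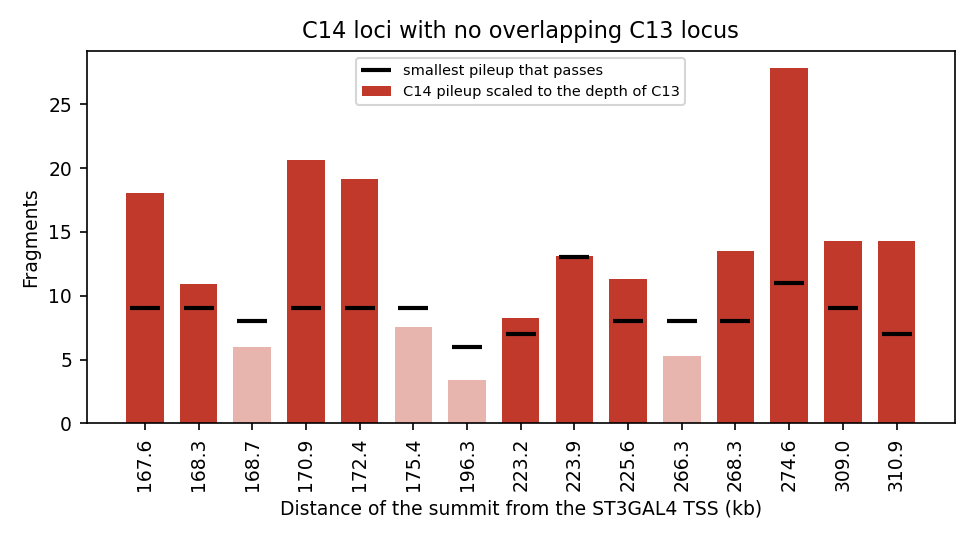
Pileup (fragments) of the 15 C14 loci without a C13 locus after scaling to the depth of C13 (bars), by distance of the summit from the ST3GAL4 TSS (kb, not to scale); black marks are the smallest pileup that passes at the scaled local background. The 11 dark bars pass and the 4 light bars do not.

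The local background of the ST3GAL4 loci was above the lowest of the list throughout. It is the expected number of fragments that MACS2 derived from the input DNA of the same bull, worked back from the listed values. In C13 it ranged from 0.225 to 6.90 fragments with a median of 0.837, beside 0.222 over all C13 loci, and all 12 loci were above that median. In C14 it ranged from 0.801 to 41.2 fragments with a median of 3.18, beside 1.09 over all C14 loci, and 25 of 26 were above that median. As multiples of the lowest background, the medians were 6.21 in C13 and 8.87 in C14. None of the 12 and none of the 26 were at the lowest background, where 30.5% of all C13 loci and 8.14% of all C14 loci were. The clustered loci of FAM207A and POFUT2 on chromosome 1 had the same trait, with 0 loci at the lowest background in either bull and median multiples in C13 of 7.59 for FAM207A and 8.28 for POFUT2. In C14 the median multiple was 10.1 for POFUT2, and that of FAM207A lay between those of ST3GAL4 and POFUT2. At the shared intervals the background was 2.86 to 5.97 times as high in C14, with a median of 3.62, beside 6.28 at the shared intervals of all other genes. The value of 2.86, at 30323435, sets different summits against each other. At the summit 30323753 the background was 1.29 fragments in C13 and 7.98 in C14. At the other subpeak of that interval it was 0.95 and 3.69. The same interval, at 30281375, had the highest background in both bulls, at 51.1 times the lowest in C13 and 115 times in C14. The part of the input signal in the clustering was not tested.

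**Figure D5:**
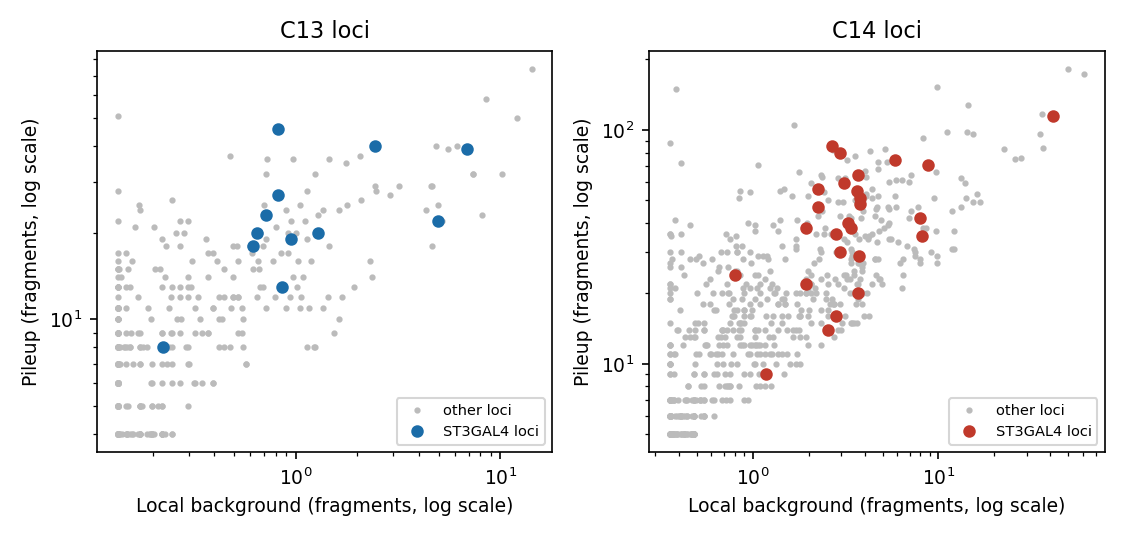
Pileup against local background (both in fragments, log scales) for the ST3GAL4 loci (coloured) and all other loci (grey) of C13 and C14. The coloured points lie to the right of the column of loci at the lowest background in both bulls, and the coloured point farthest right is the interval at 30281375 in C13 (6.90 fragments) and 30281374 in C14 (41.2 fragments).

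In C13, FAM207A had more loci than ST3GAL4, 14 against 12, and in C14 fewer, 22 against 26. With the lists added, in which a shared interval counts in both, ST3GAL4 had 38 loci, FAM207A 36 and POFUT2 23, and the latter genes share the cluster on chromosome 1. The densest 150 kb held 10 intervals in the ST3GAL4 cluster of C13 and 24 in that of C14, against 18 and 30 in the FAM207A and POFUT2 cluster and at most 7 and 15 anywhere else. The median pileup was 21 in C13 and 41 in C14 for ST3GAL4, and 23 and 45.5 for FAM207A. All 14 FAM207A loci of C13 overlapped a C14 locus, as the 12 of ST3GAL4 did. In the other direction, 15 of 22 FAM207A loci of C14 (68.2%) overlapped a C13 locus, 8 of 16 POFUT2 loci (50%) did, and 11 of 26 (42.3%) did for ST3GAL4. These differences were not tested, since loci of a cluster are not replicates. The FAM207A and POFUT2 loci were all distal intergenic, whereas the ST3GAL4 loci were all intronic. Counted by the gene whose intron held them, KIRREL3 had more loci than any other gene in C14, 26, with RNF122 next at 17, and the second most in C13, 12, after RNF122 with 13. Of the intron loci assigned to a gene other than the one that held them, the ST3GAL4 loci were 12 of 41 in C13 and 26 of 59 in C14.

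The loci that were assigned to KIRREL3 itself lay upstream of that gene and were listed in both bulls. The interval 81396 bp upstream of the KIRREL3 TSS in C13, chr29:30968247-30968757, had a pileup of 16 fragments there. In C14, its counterpart at 30968301 had subpeaks of 33 and 30 fragments. The interval 159854 bp upstream, chr29:31046705-31046927, had 11 fragments in C13, and its counterpart at 31046713 had 15 in C14. Fold enrichments ranged from 8.03 to 12 over these loci. The C14 pileup was above that of C13 at both intervals, and both were shared.

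Genes related to ST3GAL4 and KIRREL3 were looked up by symbol, beside all protein-coding genes of the RefSeq table, of which 0.849% had a locus in C13 and 1.29% in C14. Of 20 sialyltransferase genes, 1 had a locus in C13, which was ST3GAL4, and 2 had one in C14, ST3GAL4 and ST8SIA3, which encodes an enzyme that joins sialic acids to each other. The locus of ST8SIA3, chr24:56959111-56959476, was distal intergenic, 166385 bp upstream of the TSS, with 19 fragments and a fold enrichment of 8.10, and overlapped no C13 locus. Of 12 genes for the synthesis, transport and removal of sialic acid, such as GNE, CMAS and NEU1, 0 had a locus in either list. At these shares a list of this length would mostly hold none, so nothing is read from the counts. Of 12 genes of the KIRREL family and of the slit diaphragm of the kidney, where KIRREL proteins partner with nephrin (NPHS1), KIRREL3 alone had loci, in both lists. Like those of ST3GAL4, the loci of ST8SIA3 and KIRREL3 lay outside the gene they were assigned to.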

How the data were processed

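Sperm DNA of 1 fertile bull (C13) and 1 infertile bull (C14) was analysed. Per the labels and the methods of the study, reads were mapped to bosTau8 (Isaac), duplicates were removed (Picard), and peaks were called for each bull separately over its input (MACS2). ChIPseeker gave the gene of each peak, and the authors retained those above 2-fold with q below 0.05. The deposited pileup is a signal in fragments that is not scaled between the bulls, the deposited fold enrichment is the ratio (pileup + 1) to (local background + 1), and the deposited p and q are −log10 values of MACS2. Other deposited values were positions and distances, and in all loci the listed length exceeded the interval width by 1 bp. Values of all 370 and 614 records were within the range of their unit. No replicate libraries exist, so no test between the bulls was made. The depth of the libraries is unknown from the lists, and mapped reads were taken from the sequencing statistics of the study for a ratio between the bulls. Shares of genes with a locus were taken over 21666 protein-coding genes, matched by gene number.

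Lists were read with pandas version 2.3.3 in Python version 3.11.15. That definition was solved for the local background. At the ST3GAL4 loci the Poisson p then matched the listed −log10 p with a relative error up to 2.2e-06. Intervals of pileups are exact Poisson, and those of ratios exact conditional binomial, from scipy version 1.17.1, and they cover counting error only. For shared intervals, the subpeak with the highest pileup in each list was used, also where its summit differed between the bulls. Overlap and interval functions were tested on simulated data. Gene names of intron hosts were looked up by gene number in the RefSeq table of ARS-UCD2.0. Alternatives were other thresholds, overlap rules, counting units and scalings. Named genes were ST3GAL4, the gene whose intron held its loci, the genes of the nearest loci on either side, the 3 genes with the most loci, and the members of the gene lists with a locus. GNE, CMAS, NEU1 and NPHS1 were named as examples of lists and RNF122 after its value was seen. The loci, gene lists and rules were chosen with earlier results of these data known.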

Additional observations from a re-analysis of the deposited data

How the results depend on the processing

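With the loci assigned to the gene whose intron holds them in place of the gene with the nearest TSS, the count for ST3GAL4 is 0 in C13 and 0 in C14, by construction. The median ratio of C14 to C13 pileup at the shared intervals, 2.87, became 1.27 with the fold enrichment in place of the pileup, 1.08 after division by the ratio of the lowest local backgrounds and 1.86 after division by the ratio of mapped reads, added after the data were seen. The number of C14 loci without a C13 locus that pass after scaling by the ratio of the lowest local backgrounds, 11, became 7 at a −log10 p of at least 10 and 7 with the lower 95% Poisson limit of each pileup, the latter added after the data were seen. The other 25 of the 32 alternatives stayed within 1.5 times the reported count or, for the ratio, within 0.376 of it. No paired analysis was possible because each group has 1 library. Without replicate libraries and without the C13 coverage outside the listed loci, neither the spread between animals nor the absence of a locus in C13 can be measured.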
